A study of Apocynum venetum with 18 samples.

Results

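A set of 110 transcripts in leaves of Apocynum venetum stood within a factor of 2 of its starting level for the first 12 h of a salt time course and at least 4 times over it at 24 h and 48 h. They were selected on these measured values, from 53545 assembled transcripts of which 45222 had enough reads to be tested and 30087 of those had a 0 h mean of at least 1 CPM (reads assigned to the transcript relative to library size, scaled between libraries by the trimmed mean of M-values, TMM). A transcript was taken when its means at 2, 6 and 12 h were each over 0.5 and under 2 times its 0 h mean, its means at 24 h and 48 h were each at least 4 times it, and its mean over all libraries was under 700 CPM. The course up to 12 h and the size of the later rise are therefore properties of the choice and are described without a test.

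Apocynum venetum is a perennial of saline and arid ground, grown for bast fibre and for its leaves. RNA was taken from leaves of wild seedlings, labelled "wild P. apocinae", at 0, 2, 6, 12, 24 and 48 h, with 3 libraries at each of the 6 times and 18 libraries in all. All 18, those at 0 h included, are labelled with a nutrient solution containing 300 mmol/L NaCl. Plants moved to a solution without NaCl appear in the study's design but were not analysed here, so salt, the transfer, the hour of sampling and plant age cannot be told apart along the course. The labels do not say whether a library is 1 plant, and the p-values weigh differences against the spread between libraries only. No marker of leaf or of another tissue could be checked, because the deposited names could not be relied on, and no gene name or role is given here to an assembled transcript. In bulk leaf RNA, more cells that hold a transcript and more of it per cell cannot be told apart.

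As background, plants answer a sodium load in overlapping phases. An osmotic phase begins as soon as water becomes harder to take up and brings rapid closing of stomata, hormone signals and early regulators. A slower ionic phase follows as sodium and chloride build up in the leaf blade, and includes compartmentation of ions in the vacuole, synthesis of compatible solutes, protection of proteins and, where damage occurs, senescence. Which of these, if any, the 110 transcripts belong to was not tested.

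Together the 110 transcripts took 0.304% ± 0.069 (SD, n = 3) of all estimated counts at 0 h. Their share was 0.388% ± 0.026 at 2 h, had a mean of 0.291% ± 0.103 by 6 h and 0.426% ± 0.053 by 12 h. After a day in the solution, at 24 h, it was 1.24% ± 0.047, and the last sampling gave 1.72% ± 0.078. Single 0 h libraries had 0.226%, 0.358% and 0.329%, those of 24 h had 1.28%, 1.25% and 1.19%, and those of 48 h had 1.65%, 1.72% and 1.802%. No library at 24 h or 48 h came near the earlier ones, of which the highest was 0.461% at 12 h, and the 48 h libraries all lay above the 24 h libraries. This share needs no scaling between libraries, but it is a fraction of each library's total and is weighted to the most abundant members. At 48 h the members' means ran from 4.63 to 1379 CPM with a median of 68.6.

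The median fold over the 0 h mean was 1.28 after 2 h and 1.04 after 6 h. It was 1.68 after 12 h, 5.30 after 24 h and 6.85 after 48 h. Levels at 12 h were mostly above those of 0 h. Of the 110 transcripts, 73 were at 1.5 times or more and 31 at 1.8 times or more by then, and 10 were under their 0 h mean. At 6 h, by contrast, 52 were under it, and 72 were lower at 6 h than at both 2 h and 12 h. Only 3 of the 110 stayed within 25% of their 0 h mean at all of 2, 6 and 12 h. The fitted log2 change at 12 h was positive in 90.9% of members and in 51.1% of all tested transcripts. It was positive in 98.9% of 906 other transcripts high at both late times, described below. For the counts of folds the share over all transcripts was not taken. All these folds use the 0 h mean and early means that the rule used, so they only describe the set.

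**Figure D1:**
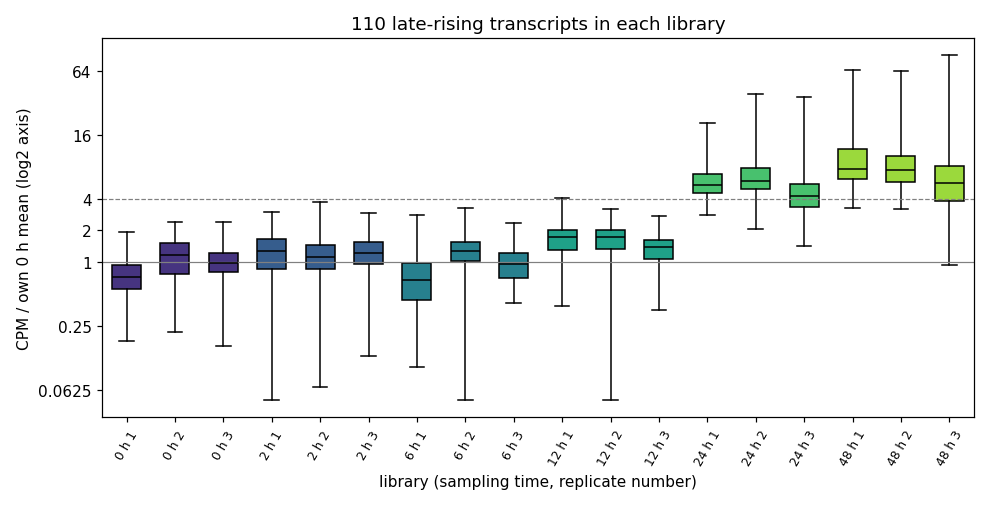
Level of the 110 transcripts in each of 18 libraries as CPM divided by the transcript's own 0 h mean, on a log2 axis. Boxes show the quartiles and median, whiskers the full range, values under 0.05 are drawn at 0.05, the solid line marks 1 and the dashed line the 4-fold minimum that chose the set. The medians are 5.43, 5.89 and 4.19 in the 24 h libraries and 7.57, 7.41 and 5.58 in the 48 h libraries.

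In edgeR's quasi-likelihood test, with a call at a Benjamini-Hochberg adjusted p under 0.05 over all tested transcripts and a log2 change of at least 1 in size, 107 of the 110 were called higher at 24 h than at 0 h, where 14.8% of all transcripts were. At 48 h 109 were called higher, against 16.3% of all, and 0 lower, against 15.7% of all. These counts follow from the choice. At 2 h, 6 h and 12 h 0 members were called in either direction, where 0.716%, 6.4% and 17.2% of all transcripts were; the bound of 2 on the fold leaves almost no room for such a call. Without the fold requirement, edgeR's adjusted p was under 0.05 for 8 members at 12 h, beside 21.2% of all transcripts, and for 0 at 2 h and 6 h, beside 0.73% and 7.62%. At an unadjusted p under 0.05, 32 members were higher and 0 lower at 12 h, where 35.1% of all transcripts passed in either direction. The counts were 11 higher and 0 lower at 2 h, beside 15% of all, and 5 higher and 1 lower at 6 h, beside 24.1%. The bounds on the early means also limit how often members can pass here. These counts therefore follow from the choice, and nothing is read from their comparison with all transcripts. The shares of all transcripts passing upward alone were not counted, and at 2 h and 12 h every passing member was higher.

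The separation by single libraries was wide at the late times. All 110 had every 24 h library above every 0 h library, as 23% of all transcripts did, and 109 did so at 48 h, as 25% of all did. At 12 h this held for 32, or 29.1%, beside 22.1% of all transcripts. In 93 of the 110 every library at 24 h and 48 h lay above every library of the first 12 h. All 6 late libraries were at 2 times the 0 h mean or more in 102, and at 4 times or more in 34. For the counts of 93, 102 and 34 the share over all transcripts was not taken. They follow largely from the bounds of the rule and only describe the set.

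The rule was also applied to the means of 17 libraries at a time, with the late library left out of its group mean. The read filter and the TMM scaling still came from all 18 libraries. The same 0 h means served for the choice and for the folds, so the shares describe the set and are not an independent test. Between 84 and 137 transcripts were then chosen. From 93.4% to 100% of them stood at 2 times the 0 h mean or more in the library left out, where 13.6% to 17.9% of all 30087 transcripts did. The share at 4 times or more varied widely, from 42.3% in 24 h replicate 3 and 67% in 48 h replicate 3 to 96.8% in 48 h replicate 1, beside 3.48% to 6.58% of all transcripts. Replicate 3 was the lowest library for 78 members at 24 h and for 75 at 48 h.

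The scaling moves with this difference, and its part in it was not tested. Replicate 3 had the lowest unscaled share at 24 h but the highest at 48 h. The TMM factors were 0.866, 0.792 and 1.04 in the 24 h libraries and 0.744, 0.795 and 0.844 in the 48 h libraries, against 1.11 to 1.16 at 0 h, and a lower factor raises every scaled value of its library. Without TMM the median of all transcripts shifted by -0.34 on the log2 scale at 24 h against 0 h and by -0.52 at 48 h. The members' median fold was then 4.10 at 24 h and 4.79 at 48 h. All 110 remained at 2 times or more at both times and 103 at 3 times or more, but 46 at 4 times or more.

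Membership also rested on the 0 h libraries. The library labelled 0 h replicate 2 resembled the other 2 h libraries (mean Spearman correlation 0.919 over tested transcripts) more than its own group (0.886), and the library labelled 2 h replicate 2 resembled the other 0 h libraries (0.908) more than its own (0.892). With 0 h replicate 2 left out, 53 of the 110 still met the rule. Of the 57 lost, 39 passed 2 times at 12 h and 25 at 2 h, some at both, 45 were still at 4 times or more at 24 h and 48 h, and 12 were under 4 times at one of them or both. Without 0 h replicate 1, 65 of the 110 met it, and of the 45 lost 31 were under 4 times at 24 h, 48 h or both and 6 passed 2 times at 12 h; the median fold of the 110 was 4.81 at 24 h and 6.31 at 48 h. Without 0 h replicate 3, 67 met it, and of the 43 lost 17 were under 4 times late and 19 passed 2 times at 12 h. With both doubted libraries left out 45 of the 110 met it, and the median fold of the 110 was then 1.39 after 2 h, 1.71 after 12 h, 5.78 after 24 h and 7.64 after 48 h. In the edgeR fit without both libraries 17 members were called at 2 h, beside 12.4% of all transcripts, 1 at 6 h, beside 11.5%, and 27 at 12 h, beside 21.9%. Without 0 h replicate 2 alone 7 were called at 2 h, beside 6.01%, 1 at 6 h, beside 8.92%, and 23 at 12 h, beside 19.6%. Calls rose over all transcripts in these fits, and at 2 h and 12 h the members' shares lay near the background, so the counts show nothing about the members.

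**Figure D2:**
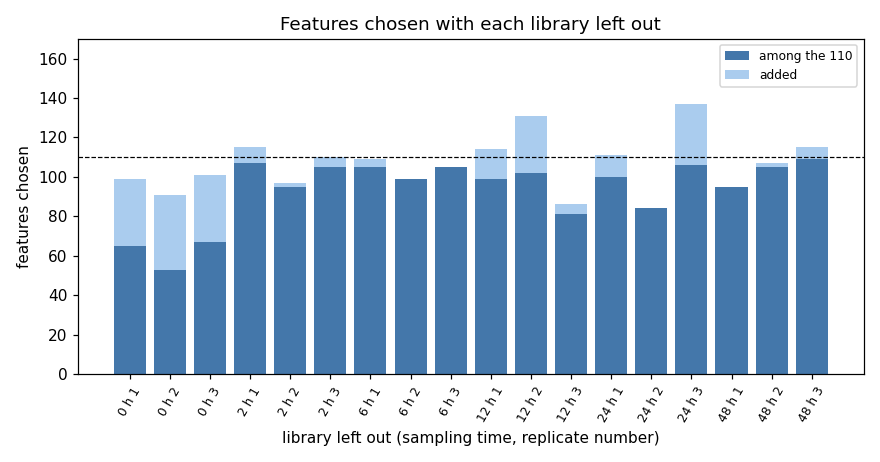
Number of transcripts the rule chose when each library was left out, by sampling time and replicate number. The dark part of each bar counts those among the 110, the pale part transcripts added, and the dashed line marks 110. The dark part is lowest, at 53, without 0 h replicate 2, and the whole bar is highest, at 137, without 24 h replicate 3.

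The rule sets no order between 24 h and 48 h. Between these times the members lay mostly higher at 48 h, with a median log2 change of 0.38 (quartiles 0.08 and 0.81, range -1.49 to 2.31) beside -0.03 over all tested transcripts. In limma fits on the deposited FPKM, not TMM-scaled, the members had a median of 0.18. The medians over all transcripts were -0.119 with 1 added to the FPKM and -0.171 with 0.1 added. The part of the scaling in this was not tested for the members. Their means were higher at 48 h in 87 of 110, or 79.1%, where this held for 47.9% of all transcripts and for 60.3% of the 906 other transcripts with late means at 4 times 0 h or more, an early course outside the bounds and a mean under 700 CPM. The median of those 906 was 0.14. Of the 906, 863 were outside the bounds at 12 h, so values the rule used split them from the members. Within the early bounds, 213 transcripts reached 4 times at 48 h only and 30 at 24 h only. The difference between the members and the 906 is therefore given as a description of the choice. Both late times share no library, but both were compared with the same 0 h libraries in choosing the set.

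Most of these differences did not pass the test singly. edgeR's quasi-likelihood test called 1 member higher at 48 h than at 24 h, beside 0.144% of all transcripts, and 0 lower, beside 0.292%. At an unadjusted p under 0.05, 19 members were higher and 1 lower, where 12.1% of all transcripts passed in either direction. DESeq2 called 4 higher, beside 0.689% of all, and limma on log2(FPKM + 1) called 1 lower, beside 0.647%. Every 48 h library lay above every 24 h library in 29 members, or 26.4%, beside 8.98% of all transcripts, and below in 2, or 1.82%, beside 9.16%. By means, 38 members were at 1.5 times their 24 h level or more, 16 at 2 times or more, 70 between 2/3 and 1.5 times, and 2 at 2/3 or less. By 48 h 45 members were at 8 times their 0 h mean or more, and 11 at 16 times or more, where 10 had been at 8 times or more at 24 h.

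**Figure D3:**
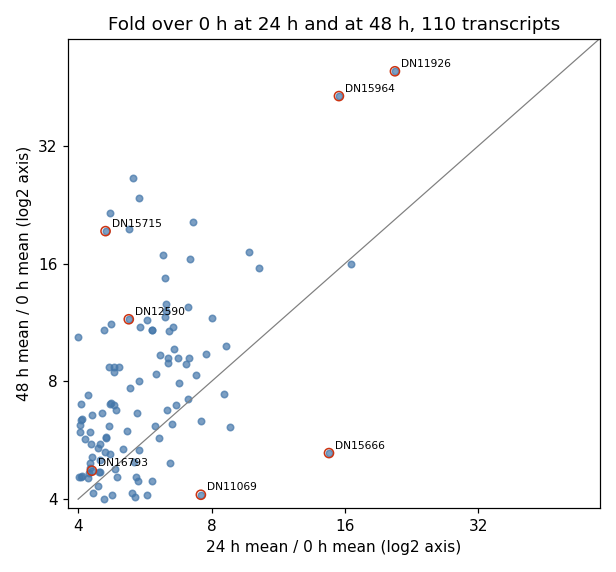
Fold over the 0 h mean at 24 h (horizontal) and at 48 h (vertical) of each of the 110 transcripts, both on log2 axes, with equal folds on the grey line and the 7 transcripts described by ID circled. Points above the line, 87 of 110, were higher at 48 h, and both axes begin near the 4-fold minimum that chose the set.

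The single member called between the late times was TRINITY_DN15715_c0_g1_i1_8, a transcript of 2470 nt. Its CPM was 1.103, 1.13 and 1.32 at 0 h, 5.62, 3.65 and 7.13 at 24 h, then 15.97, 18.7 and 34.2 at 48 h. The groups do not overlap, and the highest 24 h library is well below the lowest 48 h library. The log2 change from 24 h to 48 h was 2.07 (SE 0.41, adjusted p = 0.0419 in edgeR's quasi-likelihood test). The call was lost without 24 h replicate 1 or 2 and without any 1 of the 48 h libraries, with adjusted p from 0.0781 to 0.146, while the log2 change stayed between 1.66 and 2.27.

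The largest falls after 24 h were not called. TRINITY_DN15666_c0_g1_i6_2 had 49.2, 67.8 and 34.2 CPM at 24 h and 23.7, 24.2 and 6.00 CPM at 48 h, after 2.86, 5.44 and 1.97 CPM at 0 h. Its 48 h libraries all lay below those at 24 h, with a log2 change of -1.49 (SE 0.50, adjusted p = 0.206, edgeR). Under limma on log2(FPKM + 1) this transcript passed, at -1.64 and an adjusted p of 0.0496. TRINITY_DN11069_c0_g2_i1_6 had 23.4, 28.8 and 13.6 CPM at 24 h and 14.5, 16.7 and 4.46 CPM at 48 h. These groups overlap, and the log2 change was -0.88 (SE 0.42, adjusted p = 0.421, edgeR).

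The 110 transcripts covered a wide range of levels. Their mean CPM over 18 libraries ran from 2.60 to 660.4 with a median of 25.4, and 25 were over 100 CPM, 60 between 10 and 100 and 25 under 10. At 0 h the median member ranked at the 64.9th percentile of tested transcripts by CPM, and at 48 h at the 91.7th. The deposited FPKM, a level per length, were not TMM-scaled, so they differ from these CPM in scaling too. In FPKM the median member had 4.71 at the start, 6.68 by 12 h, 20.2 by 24 h and 23.1 by 48 h.

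The most abundant member was TRINITY_DN16793_c0_g1_i13_7, of 1890 nt. It had 179.6, 419 and 228 CPM at 0 h, 560.5, 361 and 529.9 at 2 h, then 69.8, 497 and 295 at 6 h. At 12 h it had 535, 449 and 304 CPM, at 24 h 1272, 1519 and 760.1, and at 48 h 1739.7, 1162 and 1007. Every late library is above every earlier one, while the 0, 2, 6 and 12 h groups overlap with one another. Between 24 h and 48 h it did not separate, with a log2 change of 0.14 (SE 0.51, adjusted p = 0.955, edgeR) that changed sign without 24 h replicate 3, at -0.10, and without 48 h replicate 1, at -0.13.

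The next most abundant, TRINITY_DN12590_c0_g1_i7_4, of 3475 nt, lay even at the start. Its CPM was 105, 100.4 and 135 at 0 h, 117, 93.9 and 121 at 2 h, then 118, 102 and 70.8 at 6 h. At 12 h its libraries spread to 133, 321 and 195 CPM and at 24 h to 489, 1027.5 and 253, so those at 12 h and 24 h overlap. At 48 h it had 1459, 1359 and 1101 CPM, above every 24 h library. The log2 change from 24 h to 48 h was 1.15 (SE 0.40, adjusted p = 0.236, edgeR), and was not called.

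**Figure D4:**
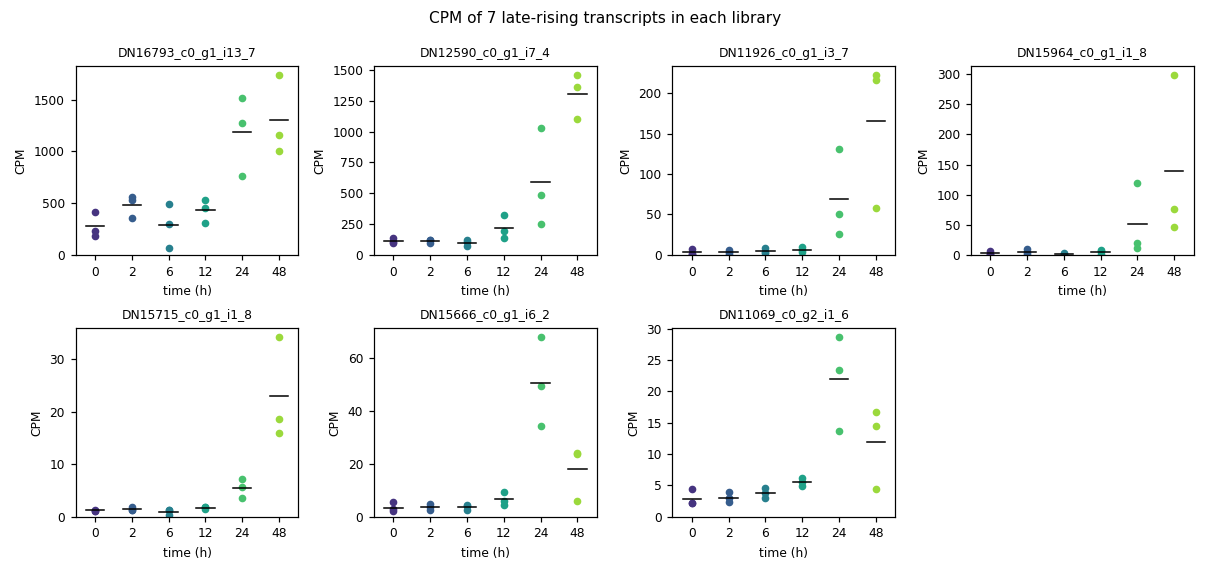
CPM of the 7 transcripts described by ID in each library at 0, 2, 6, 12, 24 and 48 h, with points for the 3 libraries and a bar for their mean, on linear axes that start at 0. Late libraries spread widely in some, as from 45.9 to 298 CPM at 48 h in TRINITY_DN15964_c0_g1_i1_8.

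The highest folds over 0 h belonged to transcripts with low and uneven 0 h values. TRINITY_DN11926_c0_g1_i3_7, of 6641 nt, stood at 49.6 times its 0 h mean at 48 h, with 1.31, 7.84 and 0.843 CPM at 0 h, 26.1, 130.3 and 50.7 at 24 h, then 222, 216 and 57.5 at 48 h. The 0 h mean of 3.33 CPM comes mostly from replicate 2, and the late groups overlap. TRINITY_DN15964_c0_g1_i1_8, of 1923 nt, stood at 42.8 times, with 1.63, 2.25 and 5.90 CPM at 0 h, 19.7, 12.2 and 119.9 at 24 h, then 45.9, 75.4 and 298 at 48 h. Replicate 3 is far above the other libraries at both late times, and without 24 h replicate 3 the 24 h rise was 2.29 on the log2 scale with an adjusted p of 0.0704 in edgeR's test, no longer a call. Of the members called at neither late time there was 1, TRINITY_DN15513_c0_g1_i11_4, chosen for mention after its values were seen, with 0.408, 0.588 and 3.89 CPM at 0 h, 13.5, 23.1 and 6.50 at 24 h, then 14.8, 13.5 and 1.54 at 48 h. Its replicate 3 was the highest library at 0 h and the lowest at 24 h and 48 h, and the 0 h and 48 h groups overlap (adjusted p = 0.0646 at 24 h and 0.105 at 48 h, edgeR).

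Replicates of the members spread widely at 0 h and 6 h, as did those of the other late-high transcripts. The median coefficient of variation was 46.6% at 0 h and 44.2% at 6 h, beside 50.6% and 41.1% in the 906 others and 29.3% and 27.01% over the 30087 transcripts with a 0 h mean of at least 1 CPM. At 24 h and 48 h it was 28.1% and 28.7%, beside 29.3% and 25.1%. The library with the low member values at 6 h was replicate 1, where the median member stood at 0.678 times its 0 h mean against 1.28 and 0.971 in the other libraries; at 0 h it was replicate 1 too, at 0.729 against 1.17 and 0.991.

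The bounds cut through a continuous range of courses. Among transcripts with a 0 h mean of at least 1 CPM, 1051 were at 4 times it or more at 24 h and 48 h whatever their early course, so the members made 10.5% of them, and 241 of the rest were kept out by their 12 h mean alone. Within the early bounds lay 17249 transcripts, of which 30 reached 4 times at 24 h only, 213 at 48 h only and 1229 reached 2 times at both. Members nearest the bounds had 4.004 and 4.03 times at 24 h, 4.005 and 4.05 times at 48 h, and 1.99 and 1.99 times at 12 h. The nearest transcripts outside had 3.97 and 3.91 times at 24 h, 3.95 and 3.82 times at 48 h, and 2.004 and 2.01 times at 12 h. A further 4 met every other bound but were at 700 CPM or more.

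The members were long transcripts, with a median of 2626.5 nt (348 to 7414), beside 1671 nt over the transcripts with a 0 h mean of at least 1 CPM. The 906 other late-high transcripts were as long, with a median of 2588.5 nt. Length was not used by the rule.

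The identifiers of the members were uneven in a way the rule did not use. Each feature ID ends in a digit from 1 to 9 after its Trinity isoform number, and 66 of the 110 members, or 60%, ended in 6 or 7. This held for 19.6% of the transcripts with a 0 h mean of at least 1 CPM and for 48.1% of the 906 other late-high transcripts. Of all transcripts with that 0 h mean, 58.4% of those ending in 6 and 66.6% of those ending in 7 had their highest library at 24 h or 48 h, where the other digits had 14.7% to 44.3%. The digit therefore moved with the time of highest level across the assembly and not in the members alone, and what the digit records is not given in the sources used here. Pairs of features with the same Trinity gene ID correlated at a median of 0.005 across the 18 libraries (quartiles -0.35 and 0.37; 11187 pairs), so a shared gene ID was not taken to mean a shared gene. No features shared both gene ID and final digit, so every such pair joined different digits. Of all 53545 features, 24265 had an ID that differed from another only in the final digit.

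**Figure D5:**
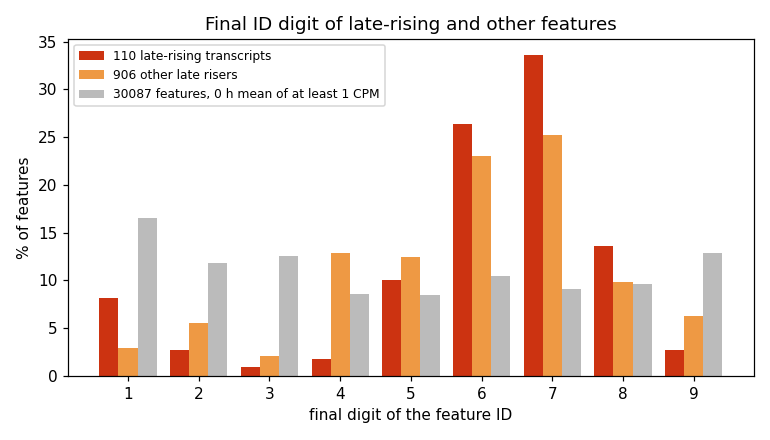
Share of features by the final digit of their ID, in % of the 110 late-rising transcripts, of the 906 other transcripts high at 24 h and 48 h, and of the 30087 transcripts with a 0 h mean of at least 1 CPM. Bars start at 0, and digits 6 and 7 hold 60% of the 110, 48.1% of the 906 and 19.6% of the 30087.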

How the data were processed

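Leaf RNA was analysed in 18 libraries, grouped by sampling time from the sample titles. The authors deposited estimated counts per assembled transcript (expected counts, 89.6% not whole), not scaled between libraries, and FPKM values for the same features; per the file headers each library has a column, and 0 were left unused. The feature IDs are those of a Trinity assembly; which aligner and counter made the tables is not given in any source used here. Lengths were taken from the ratio of count to FPKM, which was within 0.1 nt of a whole number for 99.98% of features. Totals were 17933939 to 24731213 estimated counts per library, and low transcripts are the least precise. Each single member had between 67.2 and 18626.5 estimated counts summed over the 3 libraries at 0 h.

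Counts were rounded, filtered with filterByExpr by time and TMM-scaled, and tested with edgeR 4.0.16 (R 4.3.3) quasi-likelihood in 1 model of 6 times without covariates; a call was a Benjamini-Hochberg adjusted p under 0.05 over all 45222 transcripts and a log2 change of at least 1 in size. Alternatives were DESeq2 1.42.0 and, for FPKM plus 1 or plus 0.1 on a log2 scale, limma 3.58.1; folds on these FPKM scales understate low transcripts. The fits and the choice rule were also run on simulated counts. Their dispersion, a measure of spread between replicates, was 0.05, beside a common dispersion of 0.24 in these data. They therefore do not show how the rule behaves at the spread found here. The members and lists were chosen with earlier results of these data known. IDs were printed for the 2 members with the highest mean, the 2 with the highest 48 h to 0 h ratio, and the called or, where none was called, the 2 largest changes in each direction from 24 h to 48 h. Deposited names, on 6.46% of features and 4.55% of members, were not used: of 829 KEGG alignments that state a length, 32.4% exceeded their feature by more than the allowed 1.1 times, on the unchecked assumption that the unit is amino acids. Planned gene lists, markers and sums per assembled gene were therefore not made, the last because features with 1 gene ID did not vary together. Replicates differed beyond sampling noise (lowest chi-square per degree of freedom 10.9). Replicate numbers showed little sign of pairing samples: 5 of 45 same-number pairs correlated at over 0.1. This cannot exclude a pairing.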

Additional observations from a re-analysis of the deposited data

How the results depend on the processing

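The rule chose 60 transcripts without TMM scaling (45 of the 110; an alternative chosen after seeing the data), 53 on the deposited FPKM (35 shared), 15 with early bounds of 2/3 and 1.5, 292 with a late fold of at least 3 and 34 with at least 6. It chose 90 with a 10 CPM filter, 119 with DESeq2 size factors, 105 without a filter, 110 without rounding and 86 on medians (50 shared). Leaving out 1 library gave 84 to 137, and leaving out 0 h and 2 h replicate 2 gave 78. At 48 h against 24 h, the 1 member called higher became 4 with DESeq2's test (0.689% of all transcripts), 2 with only the 6 libraries compared (0.239%), 2 without 0 h and 2 h replicate 2 (0.423%), 0 with limma on log2(FPKM + 0.1), 0 with the replicate block and 0 to 1 with 1 library left out; the count called lower was 1 with limma on log2(FPKM + 1) (0.647%) and stayed 0 with 1 library left out. The median log2 change kept its sign, from 0.18 to 0.56. The lowest values were those of the limma fits on FPKM, which were not TMM-scaled. Calls at 12 h went from 0 to 4 without a filter (13.8% of all transcripts), 8 without a fold threshold (21.2%), 27 without 0 h and 2 h replicate 2 (21.9%) and 0 to 23 with 1 library left out (19.6% where it was 23). Under the last 2 of these they went to 17 (12.4%) and 0 to 7 (6.01% at 7) at 2 h, and to 1 (11.5%) and 0 to 1 at 6 h; these shares are near or above the members'. With 1 library left out, 93 to 104 members were called higher at 24 h, beside 11% to 15.9% of all transcripts. At 48 h 106 to 108 were, beside 12.8% to 17.1%. The rule used both comparisons, so these counts follow from the choice. TRINITY_DN16793_c0_g1_i13_7 changed sign at 48 h against 24 h, to -0.0101 and -0.01009 in the limma fits, -0.0994 without 24 h replicate 3 and -0.1273 without 48 h replicate 1, and was 0.3584 at its highest, without 24 h replicate 2. The call of TRINITY_DN15715_c0_g1_i1_8 ended at adjusted p of 0.0883 with limma on log2(FPKM + 0.1), 0.0615 with 6 libraries and 0.055 with the replicate block. The causes were not tested. Few libraries with the same replicate number correlated, and what the block's counts owe to this was not tested. Other settings for sums per assembled gene were not run. Depth limits the members with 0 h means near 1 CPM most, 18 of which were under 2 CPM.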
